A study of Mus musculus with 94 samples.

Results

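Epididymal fat (eWAT, the visceral fat pad that lies along the epididymis of male mice) was compared between mice 6 weeks into obesity regression and lean mice of the same time point, with 6 poly(A) RNA-seq libraries in each group. These 12 libraries were taken by their tissue, time and condition labels from 94 libraries in the series, 47 of which are from this fat pad. All were male C57BL/6JBomTac mice. The regression group was given the high-fat diet D12492 for 18 weeks from 10 weeks of age and then the low-fat diet D12450J for 6 weeks, while the lean group ate D12450J throughout. No altered gene and no agent other than the diets is named in the labels. The series also holds obese mice before the diet change and mice 2 and 12 weeks after it, each with lean mice of their own, and no library is shared between times. Each library is labelled as a biological replicate. The labels state 3 mice per enclosure unless fighting mice were parted, but which mice shared one is not given, so the p-values measure the spread between libraries and may miss a shared cage.

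White adipocytes store triglyceride and, when fed carbohydrate and insulin, also make fatty acids from citrate through Acly, Acaca, Fasn and the elongase Elovl6. Fat also holds macrophages, and in obesity many of them lie around dying adipocytes, take up lipid and carry Trem2, Gpnmb, Itgax (CD11c) and lysosomal genes, for which they are known as lipid-associated macrophages. In a bulk library the RNA of all these cells is mixed, so fewer or more cells of a type and less or more RNA per cell cannot be told apart.

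Library totals were higher in regression (7.1 to 16.2 M counts) than in lean mice (6.43 to 7.77 M; exact permutation test, two-sided, p = 0.00649, where 0.00216 is the smallest possible), and thinning every library to the smallest total gave 1078 called genes against 1086 on all counts. The 10 adipocyte markers were detected in all 12 libraries, with summed levels of 28900 to 47870 counts per M counts of the library (CPM) in lean and 26180 to 44480 CPM in regression mice, so the labelled tissue carried its defining genes. Several libraries stood apart. Lean replicate 5 held 5786 CPM of epididymis and vas deferens genes, against at most 7.97 CPM in any other of the 12, and 5908 CPM of smooth muscle genes against 208.5 to 326.1 CPM. Lean replicates 1 and 3 and regression replicate 2 held genes of the efferent duct cilium at 127.7, 295.4 and 39.94 CPM. Regression replicate 6 had the highest macrophage and the lowest adipocyte sum. Results that rest on lean replicate 5 or regression replicate 6 are given with and without them.

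**Figure D1:**
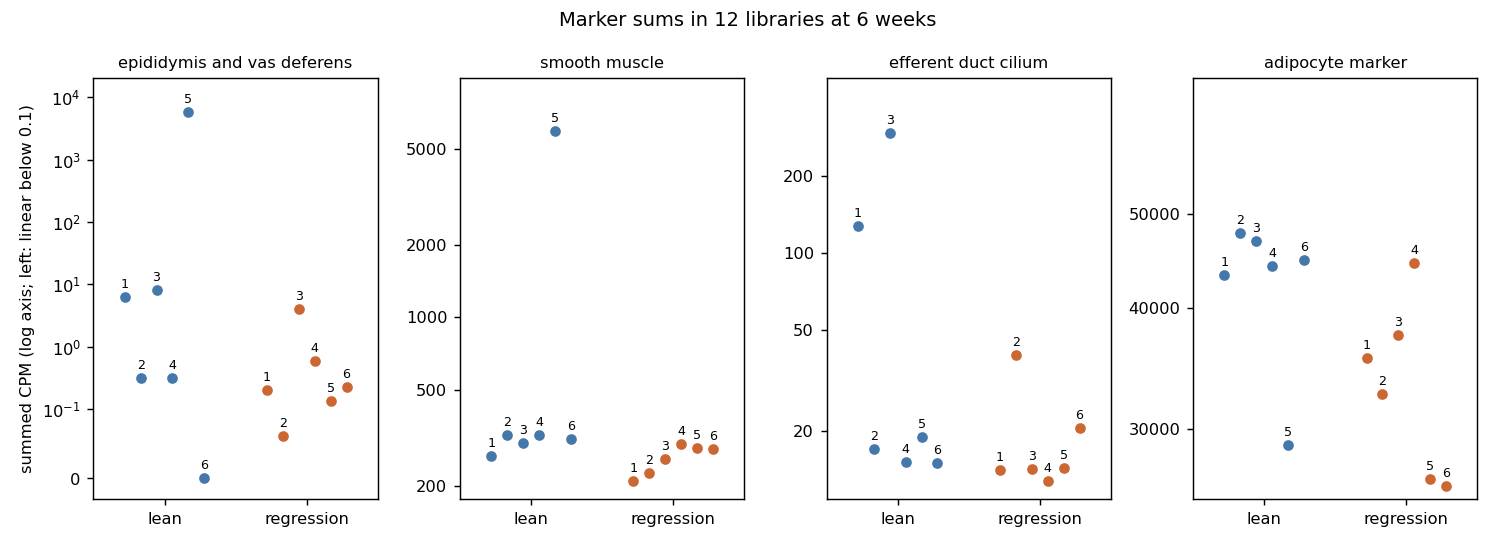
Summed CPM of 4 marker lists in each of the 12 libraries, with lean replicates 1 to 6 on the left of each panel and regression replicates 1 to 6 on the right, the number beside each point being the replicate. The vas deferens axis is linear near 0 and logarithmic above. Lean replicate 5 is at 5786 CPM of vas deferens and 5908 CPM of smooth muscle genes, and lean replicates 1 and 3 carry most of the cilium genes.

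After 6 weeks on the low-fat diet many macrophage genes were higher than in lean fat, such as Mmp12 by a log2 difference of 8.52 ± 1.23 (SE), while 18 of 20 genes of fatty acid synthesis did not pass the test. Of 14323 genes tested with edgeR's quasi-likelihood test, 1086 (7.58%) had a Benjamini-Hochberg adjusted p under 0.05 and are termed called, of which 796 (5.56%) were higher and 290 (2.02%) lower in regression. The median log2 difference of all tested genes was -0.0306. Among the 796 higher genes, 225 were above every lean library in all 6 regression libraries, 336 in 5, 210 in 4 and 25 in 3 or fewer. Among the 290 lower genes 66 were below every lean library in all 6. Over all tested genes, all 6 regression libraries lay above all lean ones in 295 (2.06%) and below them in 145 (1.01%). In 104 of the 290 lower genes lean replicate 5 alone held more CPM than the other 5 lean libraries together, and in 22 of the 796 higher genes 1 regression library held more than the other 5.

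**Figure D2:**
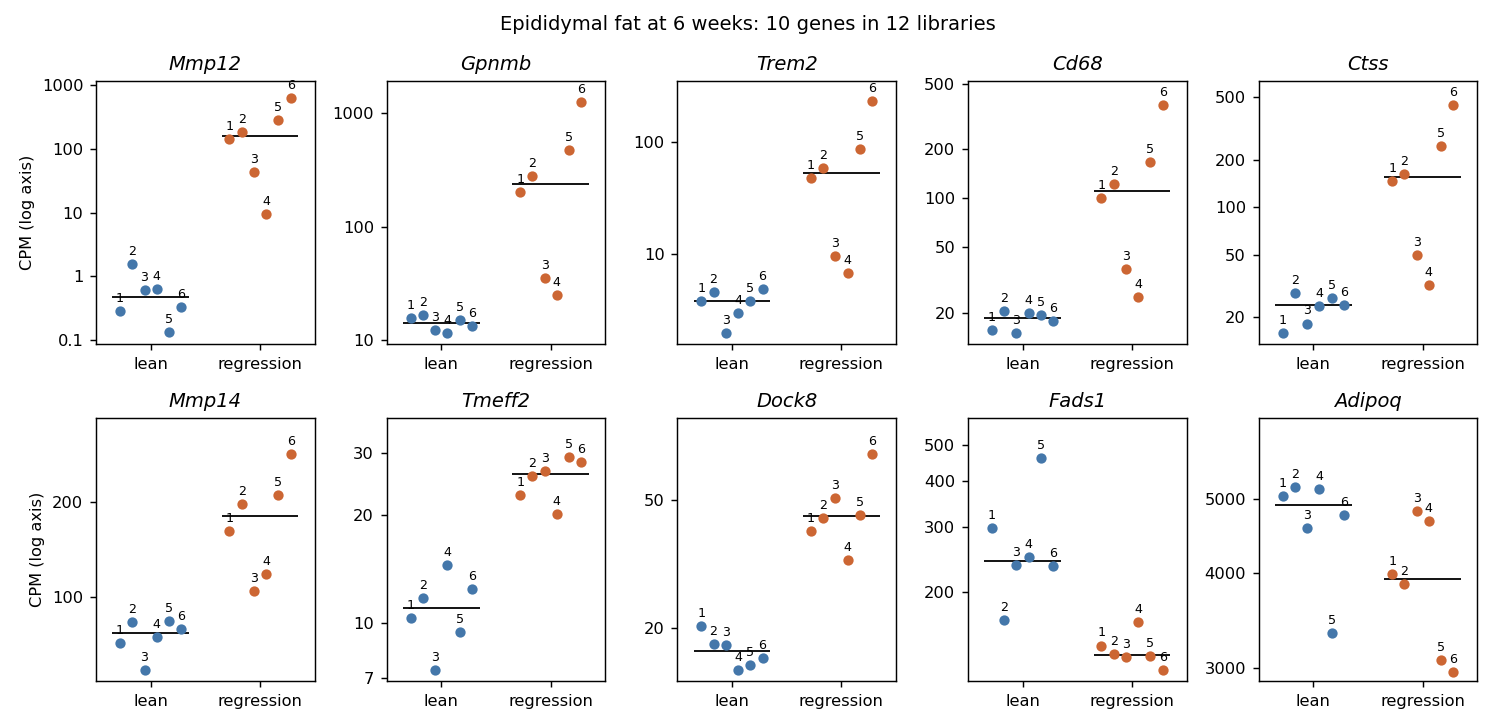
Expression in CPM (log axis) of 10 genes in every library, blue for lean and orange for regression, with the replicate number beside each point and a line at the group median. In the 5 macrophage genes (Mmp12, Gpnmb, Trem2, Cd68 and Ctss) the regression libraries spread widely with replicate 6 on top. Tmeff2 and Fads1 have narrow regression groups that lie wholly above (Tmeff2) or below (Fads1) the lean ones. The regression group of Dock8 also lies wholly above the lean one but is wider, with replicate 6 on top.

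Among genes averaging 5 CPM or more the largest increase was in Mmp12, the elastase made by macrophages (chr9:7344381-7369499, mm10). Mmp12 was at 0.282, 1.58, 0.613, 0.631, 0.131 and 0.327 CPM in lean replicates 1 to 6 and at 141, 182, 44.2, 9.50, 284 and 637 CPM in regression replicates 1 to 6. All 6 regression libraries lay above all lean ones, but they spanned a wide range, with replicate 4 lowest and replicate 6 highest. The difference given above for Mmp12 (n = 6 per group) had an adjusted p of 0.000245 by edgeR's quasi-likelihood test. Without lean replicate 5 and regression replicate 6 it was 7.57 (adjusted p = 0.0101). With runs of neighbouring mouse numbers (replicates 1 to 3 and 4 to 6) as a random block in limma, Mmp12 was not called (adjusted p = 0.398). That fit differs in the test as well as in the block.

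Lipid-associated macrophage genes were higher in 10 of 18 members, all of which were tested, and lower in none, with a median log2 difference of 1.91. Gpnmb, a membrane glycoprotein of lipid-loaded phagocytes (chr6:49036546-49070929), was between 11.7 and 16.6 with a median of 14.3 CPM in lean mice and at 200.4, 279, 35.7, 25.1, 470.9 and 1267 CPM in regression replicates 1 to 6. Trem2, the lipid-sensing receptor of these cells (chr17:48346401-48354147), was between 1.99 and 4.91 with a median of 3.79 CPM in lean mice and at 47.3, 58.5, 9.64, 6.77, 86.2 and 229 CPM in regression. Itgax (chr7:128129547-128150657) was between 0.987 and 3.52 with a median of 1.93 CPM in lean mice and at 26.5, 40.3, 9.91, 3.33, 74.4 and 173 CPM in regression. In Gpnmb and Trem2 every regression library was above every lean one, while for Itgax replicate 4 fell below the highest lean library, and in all 3 genes the regression replicates kept one order, 6, 5, 2, 1, 3 and 4 from high to low. The log2 differences were 4.74 ± 0.83 for Gpnmb (adjusted p = 0.0019), 4.30 ± 0.78 for Trem2 (adjusted p = 0.00202) and 4.61 ± 0.83 for Itgax (adjusted p = 0.00194). Atp6v0d2, a proton pump subunit, differed by 5.63 ± 1.00 (adjusted p = 0.0019). Spp1 (osteopontin), a member known to be strong in obese fat, differed by 2.86 ± 1.07 and did not pass the test (adjusted p = 0.0894), and without lean replicate 3, where it was at 10.7 CPM, the adjusted p was 0.0471. Without regression replicate 6 the count of called members fell from 10 to 6, and without that library and lean replicate 5 to 4. With the run block in limma none of the 10 was called (adjusted p = 0.124 for Gpnmb and 0.272 for Trem2).

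Promoters of 5 macrophage genes described here are shown because these genes moved together, a choice made with their values in view. They are RefSeq windows on GRCm38.p6 (mm10) from 250 bases before to 50 after the start, on the gene's strand, in lower case with motif matches in capitals. The motifs searched on both strands were GAGGAAGT, a form bound by the macrophage factor PU.1 (Spi1), TGACTCA, the AP-1 site, and the palindromic E-box bound by the lysosomal regulators Tfeb, Tfe3 and Mitf. The windows are chr9:7344147-7344446 for Mmp12 (forward strand, 1 of its starts, with a PU.1 match on the opposite strand), chr3:95526536-95526835 for the protease gene Ctss (forward, PU.1 on the opposite strand), chr6:49036268-49036567 for Gpnmb (forward, AP-1), chr11:69666121-69666420 for Cd68 (reverse, 2 AP-1 matches on the opposite strand) and chr17:48346151-48346450 for Trem2 (forward, no match). The window at the other Mmp12 start and that of Itgax, not printed, each hold an AP-1 match on the opposite strand and no PU.1 match.
Mmp12: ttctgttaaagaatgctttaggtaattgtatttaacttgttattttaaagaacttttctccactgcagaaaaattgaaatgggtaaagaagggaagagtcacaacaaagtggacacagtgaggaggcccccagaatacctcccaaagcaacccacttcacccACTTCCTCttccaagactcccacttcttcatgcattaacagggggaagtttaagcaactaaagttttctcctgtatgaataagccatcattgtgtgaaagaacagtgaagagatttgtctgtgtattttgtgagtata
Ctss: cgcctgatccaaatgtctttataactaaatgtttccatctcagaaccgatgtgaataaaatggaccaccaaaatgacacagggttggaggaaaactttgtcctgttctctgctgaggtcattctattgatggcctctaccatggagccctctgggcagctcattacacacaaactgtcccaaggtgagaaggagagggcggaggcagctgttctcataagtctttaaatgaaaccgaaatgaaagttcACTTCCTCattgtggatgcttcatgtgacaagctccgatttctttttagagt
Gpnmb: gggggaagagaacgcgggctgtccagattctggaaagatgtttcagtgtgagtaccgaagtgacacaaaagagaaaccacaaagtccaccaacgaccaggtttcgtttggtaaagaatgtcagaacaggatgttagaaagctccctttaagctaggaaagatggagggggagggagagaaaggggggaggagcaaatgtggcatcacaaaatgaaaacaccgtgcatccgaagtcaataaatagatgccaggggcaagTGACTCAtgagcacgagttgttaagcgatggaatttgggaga
Cd68: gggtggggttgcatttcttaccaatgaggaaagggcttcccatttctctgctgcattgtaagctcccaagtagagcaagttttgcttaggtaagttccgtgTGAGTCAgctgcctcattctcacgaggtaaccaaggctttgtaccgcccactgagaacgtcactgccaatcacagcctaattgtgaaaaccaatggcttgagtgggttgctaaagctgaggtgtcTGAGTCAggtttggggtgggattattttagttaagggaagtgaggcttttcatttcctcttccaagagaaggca
Trem2: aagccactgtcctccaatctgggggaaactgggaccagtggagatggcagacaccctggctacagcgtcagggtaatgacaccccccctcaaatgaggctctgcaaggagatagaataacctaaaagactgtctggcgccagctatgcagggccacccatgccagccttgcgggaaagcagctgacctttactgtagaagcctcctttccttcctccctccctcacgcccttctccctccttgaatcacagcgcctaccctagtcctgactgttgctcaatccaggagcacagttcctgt

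The PU.1 form stood in the promoters of 53 of 603 higher genes with a window (8.79%), against 411 of 10876 tested genes (3.78%), 997 of all 27025 genes with a window (3.69%) and 7 of 209 lower genes (3.35%). The AP-1 form stood in 49 higher genes (8.13%), 520 tested genes (4.78%), 1607 of all genes (5.95%) and 15 lower genes (7.18%). The lysosomal E-box was in 2 higher genes (0.332%) and 79 tested genes (0.726%). These shares describe letters in a window and were not tested. A match is not evidence of binding.

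Pan-macrophage genes, shared by macrophages of all kinds, were higher in 13 of 16 members and lower in none, with a median log2 difference of 1.70. Their summed level was 592 to 872 CPM in lean mice and 2297, 2771, 1164, 949, 3733 and 5447 CPM in regression replicates 1 to 6, so every regression library was above every lean one. Cd68, the lysosomal scavenger receptor by which macrophages are stained, was between 15.02 and 20.4 with a median of 18.4 CPM in lean mice and at 99.8, 122, 37.0, 24.9, 166 and 370.3 CPM in regression (log2 difference 2.93 ± 0.55, adjusted p = 0.00238). Ctss, the cathepsin that processes antigen in phagocytes, was between 15.9 and 28.6 with a median of 23.8 CPM in lean mice and at 146, 164, 49.5, 32.1, 246 and 446.9 CPM in regression (2.98 ± 0.56, adjusted p = 0.00238). Both genes were above the lean range in all 6 regression libraries. Adgre1 (F4/80) differed by 2.28 ± 0.48 (adjusted p = 0.0057). The adipocyte marker sum was low in the libraries highest in macrophage genes, at 26650 and 26180 CPM in regression replicates 5 and 6 against 44480 CPM in replicate 4, the lowest in those genes, and its part in the result was not tested. Without regression replicate 6 the count of called pan-macrophage genes was 8, and without that library and lean replicate 5 it was 1, Mpeg1, the perforin-like gene of macrophages. With the run block in limma none of the 13 was called (adjusted p = 0.11 for Cd68, 0.101 for Ctss and 0.0688 for Mpeg1).

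Of 11 tested genes of tissue-resident macrophages 4 were higher and none lower, with a median log2 difference of 0.38, and Selenop was not tested. The 4 were Folr2, Clec10a, F13a1 and Mrc1, the mannose receptor, for which the log2 difference was 0.72 ± 0.20 (adjusted p = 0.0214). Lyve1, the hyaluronan receptor of perivascular macrophages, was between 38.8 and 50.2 with a median of 42.3 CPM in lean and between 38.9 and 67.8 with a median of 48.2 CPM in regression mice, so the groups overlapped (log2 difference 0.22 ± 0.19, adjusted p = 0.474). Timd4, which takes up dying cells, differed by 0.28 ± 0.41 (adjusted p = 0.699). The count was 2 without lean replicate 1, 1 without lean replicate 3 and 0 without regression replicate 6. None of 8 monocyte, 8 dendritic cell or 8 B and plasma cell genes was called. Their median log2 differences were 0.11, 0.58 and 1.07, and all 8 B and plasma cell genes were positive. The difference between the resident and lipid-associated lists was not tested.

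The regression libraries differed widely from one another, and in the same order for many genes. Of the 796 higher genes 654 were highest in regression replicate 6 and 551 were lowest in replicate 4. Replicate 6 exceeded every lean library in 99.1% of these genes with a median of 3.02 times the lean mean, while replicate 4 did so in 39.2% with a median of 1.16 times, and replicate 3 in 65.1% with 1.33 times. The full order 6, 5, 2, 1, 3, 4 was found in 9 of the 10 called lipid-associated genes, 12 of the 13 called pan-macrophage genes and 328 of the 796. Leaving out regression replicate 4 raised the count of called genes to 1585, and leaving out regression replicate 6 lowered it to 178. The count was 583 with regression replicate 5 left out and 664 with lean replicate 3 left out. For the lower genes the count was 191 and 153 without lean replicates 3 and 5, 159 and 138 without regression replicates 1 and 2, and 494, 111 and 29 without regression replicates 4, 5 and 6. Such counts include genes not called on all libraries. Without lean replicate 5, 102 of the 290 lower and 664 of the 796 higher genes were still called. Leaving out lean replicate 5 and regression replicate 6 together left 18 genes, all higher, with 2388 genes at an unadjusted p under 0.05 against 3623 (25.3%) on all libraries. A total of 144 higher and 13 lower genes were called in the fit on all libraries and in each of the 12 fits that left 1 library out.

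**Figure D3:**
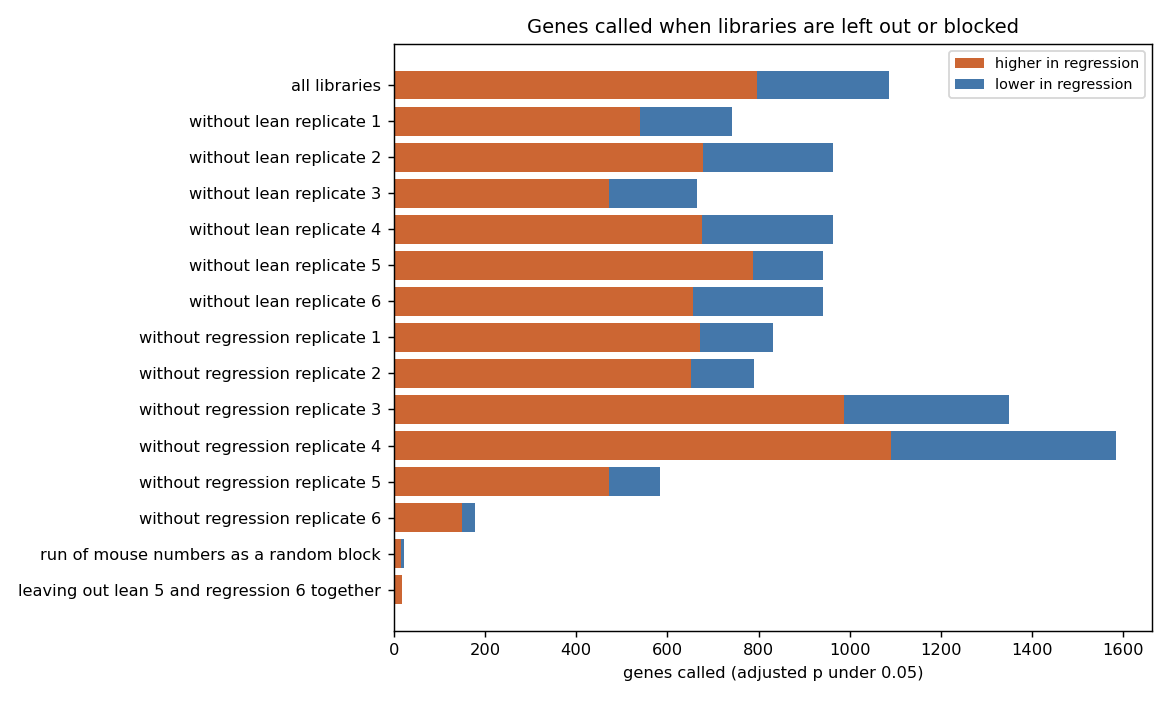
Number of genes called higher and lower (edgeR's quasi-likelihood test, or limma for the block, adjusted p under 0.05) with all libraries, with each of the 12 libraries left out, with neighbouring mouse numbers as a random block, and with lean replicate 5 and regression replicate 6 left out together. The counts run from 178 without regression replicate 6 to 1585 without regression replicate 4, with 18 when both libraries are out. The block gave 23 in limma, where the test differs as well.

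The replicates also fall into 2 runs of neighbouring mouse numbers in each group, replicates 1 to 3 and 4 to 6, and the labels do not say what a run shares. With the run as a random block (limma on voom weights) 23 genes were called, 16 higher and 7 lower. The correlation fitted within a run was 0.0667. This setting changed the test as well as adding the block, and limma without the block was not run. The fall from 1086 calls can thus not be read as that of the block alone. Of the members of the 51 lists the 23 genes held C1qa, Mmp14 and Fads1, so no other list kept a call. Fitted apart, replicates 1 to 3 gave 1 called gene (3037 at an unadjusted p under 0.05) and replicates 4 to 6 gave none (1568), with 3 mice a group.

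A few genes were called under both of these settings. Of the 18 genes without both libraries and the 16 higher genes with the block, 5 were in both: Tmeff2, Dock8, Ggt5, Mmp14 and the unnamed transcript 4930502E18Rik, a set chosen by these outcomes. Tmeff2, a membrane protein with follistatin-like domains, was between 7.36 and 14.5 CPM in lean mice and between 20.2 and 29.2 with a median of 26.2 CPM in regression. Dock8, a guanine nucleotide exchange factor of leukocytes, was between 14.8 and 20.3 with a median of 16.98 CPM in lean and between 32.7 and 69.5 with a median of 44.5 CPM in regression mice. Mmp14, the membrane-anchored collagenase, was between 58.6 and 83.9 with a median of 76.6 CPM in lean and between 104 and 284 with a median of 179.6 CPM in regression mice. The groups did not overlap in any of the 3. The log2 differences were 1.22 ± 0.19 for Tmeff2 (adjusted p = 0.00109), 1.46 ± 0.24 for Dock8 (adjusted p = 0.00109) and 1.26 ± 0.22 for Mmp14 (adjusted p = 0.0019). Ggt5, which cleaves leukotriene C4, differed by 0.82 ± 0.14 (adjusted p = 0.00174).

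Receptors that signal through Syk and those that bind antibody were higher in 11 of 16 members, with a median log2 difference of 1.60 and none lower. Among them Clec7a, the beta-glucan receptor, differed by 2.50 ± 0.56 (adjusted p = 0.00721) and Fcgr3, a low-affinity antibody receptor, by 1.64 ± 0.36 (adjusted p = 0.00658). Complement genes were higher in 9 of 14 members, with a median of 0.74. C1qa, a chain of the classical pathway's recognition molecule, was between 117 and 174 with a median of 139 CPM in lean mice and between 202 and 619 with a median of 373 CPM in regression, with no overlap (log2 difference 1.46 ± 0.28, adjusted p = 0.00333), and of the 9 it was the 1 called with the run as a block, where none of the 11 Syk-coupled genes was called. Without regression replicate 6, 4 of the Syk-coupled and 6 of the complement genes were called, and without both libraries none.

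Chemokines were higher in 8 of 16 members (Ccl3, Ccl6, Ccl8, Ccl9, Ccl11, Cxcl1, Cxcl2 and Cxcl16), with a median log2 difference of 1.25. Ccl8 differed by 2.28 ± 0.53 (adjusted p = 0.00799). Ccl2, which draws monocytes through Ccr2, differed by 0.95 ± 0.43 and did not pass the test (adjusted p = 0.165), and the log2 difference of Ccr2 was 0.14 (adjusted p = 0.743). The interferon-gamma-induced chemokines were at -0.17 for Cxcl9 (adjusted p = 0.721) and -0.19 for Cxcl10 (adjusted p = 0.737). The chemokine count was 4 without lean replicate 1, regression replicate 2 or regression replicate 5, 5 without lean replicate 3 or 6, and 2 without regression replicate 6. In the interleukin 1, inflammasome and Tnf list 6 of 12 tested genes were higher (Il1a, Il1r2 and Il6 were not tested). Il1rn, the secreted antagonist of interleukin 1, was between 0.475 and 1.31 with a median of 0.665 CPM in lean and between 0.475 and 36.6 with a median of 9.65 CPM in regression mice, where replicate 4 lay within the lean range (4.09 ± 0.89, adjusted p = 0.0063). Il1b itself differed by 0.86 ± 0.83 (adjusted p = 0.53) and Tnf by 1.76 ± 0.49 (adjusted p = 0.0223, 0.0556 without regression replicate 5). Without regression replicate 6, 1 gene of that list was called.

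Other leukocyte lists held few calls. In the T and cytotoxic cell list 4 of 18 tested members were higher (Trbc2 and Gzma were not tested): Il2rb, Nkg7, Prf1 and Ncr1, genes of natural killer and cytotoxic cells. The CD3 chains of the T cell receptor complex had log2 differences of 0.79 for Cd3d, 0.51 for Cd3e and 0.77 for Cd3g, and none was called. The 4 calls fell to 1 or 2 without any of lean replicates 1, 2, 3, 4 or 6 or regression replicate 1, and to 0 without regression replicate 5 or 6. MHC class II genes were higher in 2 of 11 members, H2-DMb1 and Cd83 (a protein of antigen-presenting cells listed with them), with a median of 0.85, and the count ranged from 0 without regression replicate 6 to 8 without regression replicate 4. Interferon-induced genes were higher in 6 of 18 members with a median of 0.41, and the count was 2 without lean replicate 3, 1 without regression replicate 5 and 0 without regression replicate 6. Of 7 tested acute-phase genes only Saa3, an apolipoprotein of inflamed fat, was called: it was between 0.613 and 1.58 with a median of 1.13 CPM in lean mice and between 2.14 and 10.8 with a median of 3.79 CPM in regression (2.10 ± 0.42, adjusted p = 0.00473), with no overlap and called in every fit that left 1 library out. The other 6 did not pass, and Saa1, Saa2, Orm2 and Pla2g2a were not tested.

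Of 24 lysosomal hydrolases and membrane proteins 12 were higher and none lower, with a median log2 difference of 0.53, while of 16 proton pump subunits 2 were higher. Ctsk, a collagen-degrading cathepsin, differed by 2.67 ± 0.55 (adjusted p = 0.00516), and Lipa, the acid lipase that frees fatty acids and cholesterol from swallowed lipid, by 1.82 ± 0.40 (adjusted p = 0.00699, 0.0513 without regression replicate 6). In the sterol efflux list 4 of 8 genes were higher: the cholesterol exporter Abcg1 (1.40 ± 0.27, adjusted p = 0.00372), Soat1, which esterifies cholesterol for storage (1.89 ± 0.45), Nceh1, which hydrolyses the ester (2.03 ± 0.49), and Mylip, which degrades lipoprotein receptors (0.42 ± 0.11). None of 22 sterol synthesis genes was called. Without regression replicate 6, 3 of the hydrolases, 1 pump subunit and 2 of the sterol efflux genes were called.

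Matrix proteases and their inhibitors were higher in 8 of 16 members, with a median of 1.14, and the count without regression replicate 6 was 5. Mmp2, a gelatinase activated by Mmp14, differed by 1.33 ± 0.26 (adjusted p = 0.00424). Of 25 extracellular matrix genes 5 were higher with a median log2 difference of 0.26, among them Col6a3, the collagen chain from which endotrophin is cut (0.79 ± 0.21, adjusted p = 0.0167). That count was 2 without lean replicate 3 or regression replicate 5 and 0 without regression replicate 6. In the progenitor and fibroblast list 4 of 14 genes were higher with a median of 0.01. Pdgfra, the receptor that marks adipose progenitors, was between 67.5 and 90.6 with a median of 74.2 CPM in lean mice and between 94.5 and 245 with a median of 173 CPM in regression, with no overlap (1.14 ± 0.23, adjusted p = 0.0043). The others were Pdgfrb, Ly6a (Sca-1) and Icam1, and the count was 2 without lean replicate 3 or regression replicate 5 and 1 without regression replicate 6. None of 10 tested mesothelial (Muc16 was not tested) or 14 endothelial genes was called. Of 19 tested cell division genes 3 were higher (Top2a, Cenpa and Tpx2, while Bub1 was not tested). That count was 1 without lean replicate 1 or 4, 0 without lean replicate 3, regression replicate 5 or regression replicate 6, and 5 without regression replicate 4.

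Other lists held 1 or 2 calls each, and with so few calls the direction of a list was not read. Cxcr4, a chemokine receptor, was higher (1.14 ± 0.28), and of 8 mast cell genes Ms4a2 (1.74 ± 0.53) and Tpsb2 (adjusted p = 0.0391), a mast cell protease, were higher. Csf3r, the receptor for granulocyte colony-stimulating factor, was the 1 neutrophil gene of 4 tested, at 1.40 ± 0.36. Among 13 lipolysis genes Npr1, the natriuretic peptide receptor (0.36 ± 0.09), and among 19 adipokine and adipogenic genes Cebpd, an early adipogenic transcription factor (0.78 ± 0.20), were higher. The stress gene Atf3 (2.71 ± 0.63) was 1 of 12 immediate early genes, Sdf2l1 (0.83 ± 0.26) 1 of 17 genes of the unfolded protein response, and Gdf15, a stress hormone (2.19 ± 0.68), stood with Cdkn2a among 12 cell cycle inhibitor and senescence genes. Acta1 of 3 tested skeletal muscle genes was lower, and neither of 2 tested red blood cell genes was called. Without regression replicate 6 none of these was called except Npr1, and other single libraries also ended the calls of Ms4a2, Tpsb2, Sdf2l1, Gdf15 and Acta1.

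**Figure D4:**
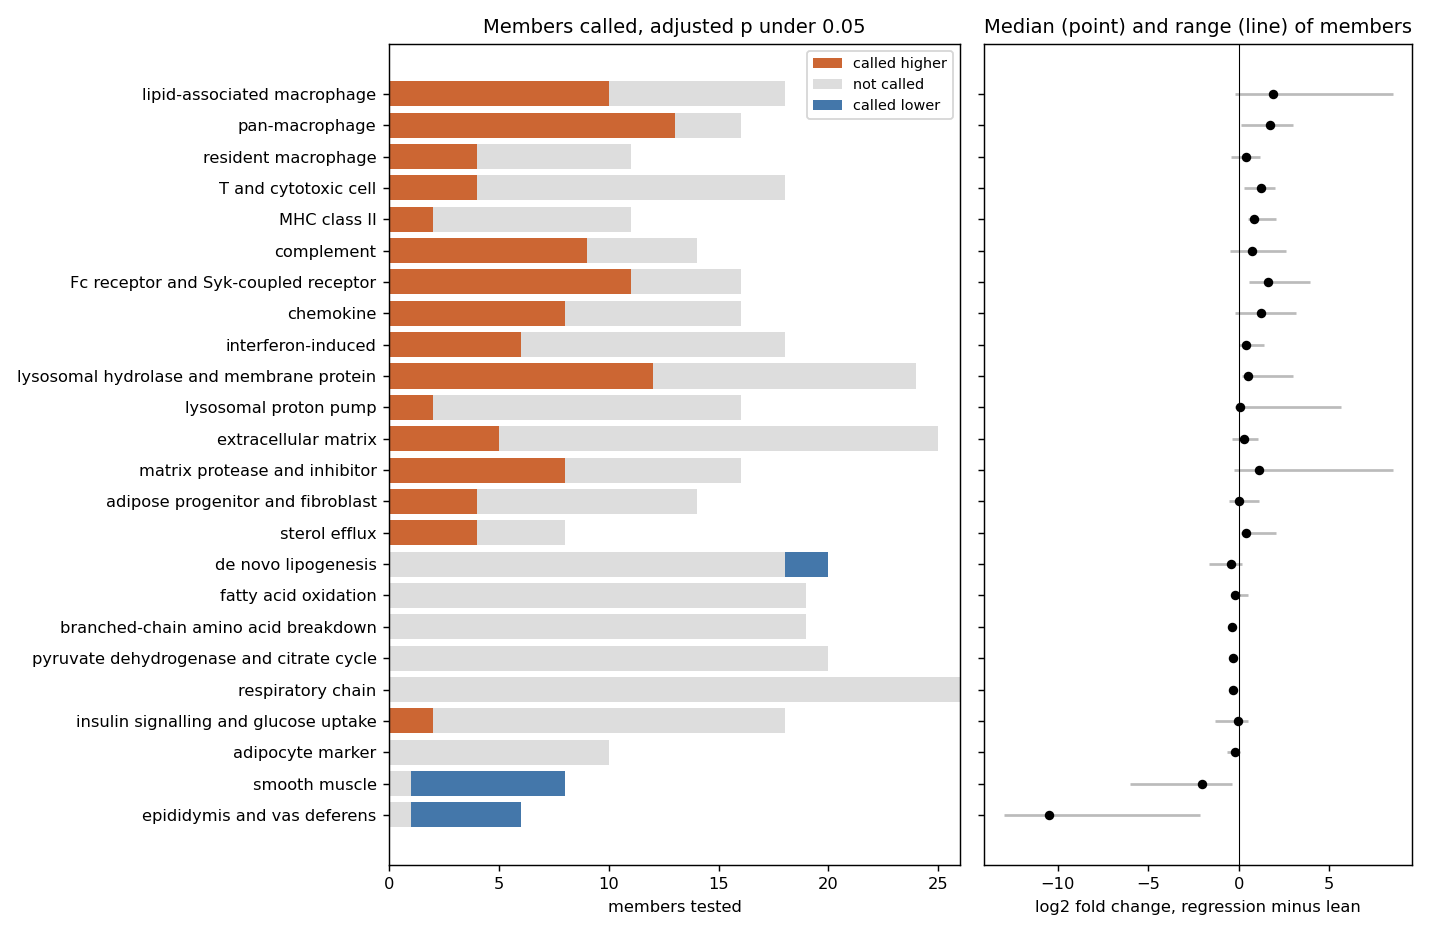
Counts of tested members called higher, not called and called lower in each of 24 gene lists (left), and each list's median log2 difference with a line from its lowest to its highest member (right). The pan-macrophage, lipid-associated macrophage, Syk-coupled receptor and complement lists have most members called higher, while the metabolic lists of adipocytes have hardly any calls and medians just below 0.

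Hardly any gene of lipid synthesis, lipid storage or mitochondria was called at 6 weeks. Of 20 de novo lipogenesis genes 2 were lower, Fads1 and Fads2, with a median log2 difference of -0.44, and none of 8 tested triglyceride synthesis genes (Gpat3 was not tested), 9 lipid droplet genes or 19 fatty acid oxidation genes was called. Fads1, the delta-5 desaturase of polyunsaturated fatty acids, was at 299, 169, 236, 248, 461.3 and 235 CPM in lean replicates 1 to 6 and at 144, 136, 134, 167, 134 and 123 CPM in regression replicates 1 to 6. All 6 regression libraries were below all lean ones, in a narrow range, and lean replicate 5 was highest. The log2 difference of Fads1 was -0.98 ± 0.18 (adjusted p = 0.00214), and it was called in all 12 fits with a library left out and with the run as a block. Without lean replicate 5 and regression replicate 6 together, Fads1 was not called (-0.73, adjusted p = 0.0596). Fads2, the delta-6 desaturase, differed by -1.66 ± 0.50 (adjusted p = 0.0331), which was not called without lean replicate 3 (0.0595), lean replicate 5 (0.242) or regression replicate 2 (0.0516), 5 (0.0788) or 6 (0.111).

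Fasn, the fatty acid synthase, was between 13000 and 28890 with a median of 20450 CPM in lean mice and at 17600, 15550, 19200, 22040, 12020 and 3010 CPM in regression replicates 1 to 6, so the groups overlapped and replicate 6 was far below the rest (log2 difference -0.45 ± 0.47, adjusted p = 0.568). Elovl6 was between 485 and 1787 with a median of 846 CPM in lean mice and at 1249, 715, 703, 818, 484 and 72.1 CPM in regression, again with replicate 6 far lowest (-0.61 ± 0.49, adjusted p = 0.441). The summed lipogenesis level was 118800 to 208000 CPM in lean mice and 171200, 136300, 157700, 173800, 104300 and 49990 CPM in regression replicates 1 to 6. The library highest in macrophage genes was thus the lowest in lipogenic ones, and the part of each in the other was not tested. All 26 respiratory chain, 20 pyruvate dehydrogenase and citrate cycle, 19 branched-chain amino acid and 10 adipocyte marker genes had negative log2 differences, with medians of -0.35, -0.31, -0.37 and -0.24, and none passed the test. Without lean replicate 5, the numbers called lower in these lists were 2, 1, 1 and 1. With DESeq2 on all libraries they were 2, 1, 2 and 0. Adipoq (adiponectin) differed by -0.26 ± 0.22 (adjusted p = 0.465), Lpl (lipoprotein lipase) by -0.50 ± 0.18 (adjusted p = 0.0825) and Lep (leptin) by -0.09 ± 0.27 (adjusted p = 0.857). Without lean replicate 5, regression replicate 3 or regression replicate 4, Lpl passed at 0.0416, 0.0393 and 0.0449.

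Few genes of signalling, stress or heat production were called. Of 18 tested insulin signalling genes (Trarg1 was not tested) Akt1, the kinase downstream of the insulin receptor, differed by 0.38 ± 0.09 (adjusted p = 0.00749) and Ptpn1, a phosphatase that dampens the receptor, by 0.52 ± 0.14 (adjusted p = 0.0224); 1 of them was called without regression replicate 5 or 6. Of 12 tested thermogenic genes (Cox7a1 and Fgf21 were not tested) Ucp1, the uncoupling protein of brown and beige fat, was called at an adjusted p of 0.0457. It was at 0 in 5 lean libraries and 0.307 CPM in lean replicate 3, and at 0.741, 0.244, 0.0877, 0.237, 3.82 and 0.566 CPM in regression replicates 1 to 6, so its fitted fold depends on the prior count and is not given. Ucp1 was not called without regression replicate 5 (0.226), nor without lean replicates 1, 2, 4, 5 or 6 (0.0784 to 0.0924) or regression replicates 1 (0.0592) or 6 (0.0871). Cdkn2a, which encodes the cell cycle inhibitor p16, was between 0 and 0.92 with a median of 0.613 CPM in lean mice and between 1.10 and 2.24 with a median of 1.35 CPM in regression (1.35 ± 0.41, adjusted p = 0.0365), with no overlap. It was not called without lean replicate 1 (0.0529), 4 (0.0637), 5 (0.0585) or 6 (0.0692) or regression replicate 5 (0.0923) or 6 (0.0813). Clock, a core transcription factor of the circadian clock, was between 88.5 and 119 with a median of 99.2 CPM in lean and between 63.6 and 84.1 with a median of 74.3 CPM in regression mice (-0.44 ± 0.11, adjusted p = 0.0117, 0.0628 without regression replicate 6). None of 14 hypoxia or 5 adipocyte enlargement genes was called.

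The 12 largest called decreases among genes averaging 5 CPM or more, which include Akr1b7, Crisp1, Spink8 and the smooth muscle genes Actg2 and Cnn1, were all highest in lean replicate 5. Lean replicate 5 held 2902 CPM of Akr1b7, an aldo-keto reductase abundant in the vas deferens, and no other lean library exceeded 0.158 CPM. Of the 6 tested epididymis and vas deferens genes (Lcn5, Lcn8, Defb48 and Cst8 were not tested) 5 were called lower, and none was without regression replicate 6. Without lean replicate 5, Akr1b7, Serpina1f and Spink8 did not pass the filter, and Crisp1 and Defb42 were not called (adjusted p = 0.939 and 0.982). DESeq2 gave none of the 5 an adjusted p, which is a missing value and not a failed test. The fitted folds of these genes depend on the prior count and are not given. Acta2, the smooth muscle actin, was at 46.8, 77.05, 64.8, 60.3, 797 and 52.98 CPM in lean replicates 1 to 6 and between 25.6 and 54.6 with a median of 41.9 CPM in regression. Of 8 smooth muscle genes 7 were called lower, 4 without regression replicate 6, 1 with DESeq2 and 0 without lean replicate 5, where Acta2 had an adjusted p of 0.259 and Myh11 of 0.467. DESeq2 gave Actg2, Cnn1 and Myh11 no adjusted p. None of 11 tested genes of the efferent duct cilium passed the test, with a median log2 difference of -2.15. Slc24a3, a sodium, calcium and potassium exchanger, was between 148 and 172 with a median of 160.1 CPM in lean and between 70.4 and 138 with a median of 103 CPM in regression mice, with every regression library below every lean one (log2 difference -0.60 ± 0.13, adjusted p = 0.00585), and it was called in all 12 fits with a library left out. Without lean replicate 5 and regression replicate 6 together, Slc24a3 was not called (adjusted p = 0.084).

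Most of the higher genes were also higher before the diet change. Of the 796, 609 (76.5%) were called higher in obese mice, 706 (88.7%) at 2 weeks and 591 (74.2%) at 12 weeks, each against lean mice of that time, where 2013 (14.1%), 2661 (18.6%) and 1549 (10.8%) of all tested genes were called higher. They make up 30.3%, 26.5% and 38.2% of those calls. All 3 times shared 483 of them (60.7%), and 31 (3.89%) were called at no other time. Of the 290 lower genes 64 (22.1%) were called lower in obesity, 118 (40.7%) at 2 weeks and 42 (14.5%) at 12 weeks, against 9.31%, 17.1% and 4.51% of all tested genes, and 138 (47.6%) at no other time. In 104 of the 290, lean replicate 5 held more CPM than the other 5 lean libraries together. Without that library 102 of the 290 were still called lower, so the 138 cannot be read as particular to this time.

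In the macrophage lists no gene passed the test of a change in its difference from lean, either from obesity to 6 weeks or from 2 to 6 weeks. Mmp12 stood at log2 differences of 6.38, 7.80, 8.52 and 8.20 in obesity and at 2, 6 and 12 weeks, Trem2 at 3.93, 4.59, 4.30 and 4.03, and Cd68 at 2.89, 3.50, 2.93 and 3.06. By edgeR's quasi-likelihood test the change from obesity to 6 weeks was 0.37 ± 1.06 for Trem2 (adjusted p = 0.951) and 0.04 ± 0.75 for Cd68 (adjusted p = 0.999). In obesity and at 6 weeks the differences had standard errors of 0.76 and 0.78 for Trem2 and 0.55 and 0.55 for Cd68. These allow sizeable changes in either direction. Between 6 and 12 weeks no gene was called by edgeR (889 at an unadjusted p under 0.05, 6.21%) or DESeq2 (988).

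The difference from lean itself changed in genes of fatty acid synthesis, leptin and matrix, among others. From obesity to 6 weeks 174 genes changed (1.21%), of which 45 (0.314%) moved up and 129 (0.901%) down, and 43 of the 45 and 96 of the 129 had a smaller difference at 6 weeks. From 2 to 6 weeks 114 changed (0.796%), 85 (0.593%) up and 29 (0.202%) down. All 85 were called lower at 2 weeks, none of them at 6 weeks. The count from obesity was 111 without lean replicate 5 and 115 without regression replicate 1. The count from 2 weeks was 73 and 61 without lean replicates 2 and 3, 58, 45 and 24 without regression replicates 1, 3 and 4, and 450 without regression replicate 6.

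Elovl6 stood at a log2 difference of -4.16 ± 0.60 in obesity, -4.37 ± 0.57 at 2 weeks and -0.61 ± 0.49 at 6 weeks, a change of 3.55 ± 0.74 from obesity (adjusted p = 0.00826) and 3.76 ± 0.72 from 2 weeks (adjusted p = 0.00778). Of the 20 lipogenesis genes 16 were called lower in obesity, 18 at 2 weeks, 2 at 6 weeks and 1 at 12 weeks, and the change from 2 weeks was called in 8 and that from obesity in 3. Acly, which makes the acetyl-CoA for fatty acids from citrate, changed by 2.65 ± 0.66 from obesity (adjusted p = 0.0299; 0.057, 0.055 and 0.0566 without lean replicate 2, lean replicate 5 or regression replicate 4). Fasn changed by 2.79 ± 0.67 from 2 weeks (adjusted p = 0.0318) and Acss2, which makes acetyl-CoA from acetate, by 3.43 ± 0.65 (adjusted p = 0.00778). Triglyceride and sterol synthesis lists, with 8 and 19 members lower at 2 weeks, had none at 6 weeks, and the change was called in 3 and 5 members. Hsd11b1, which activates glucocorticoids inside fat, stood at -3.15 in obesity and -0.73 at 6 weeks, a change of 2.42 ± 0.39 (adjusted p = 0.000791).

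Lep, the hormone gene that follows fat cell size, stood at log2 differences of 2.20 in obesity, -0.89 at 2 weeks and -0.09 at 6 weeks, a change from obesity of -2.29 ± 0.39 (adjusted p = 0.00128). Sfrp5, a secreted Wnt antagonist of growing adipocytes, changed by -2.99 ± 0.61 (adjusted p = 0.00803) to 0.10 at 6 weeks. Matrix genes were called higher in 21 of 25 members in obesity, 14 at 2 weeks and 5 at 6 weeks, and the change was called in 3 members from each time. Thbs2, a thrombospondin that limits vessel growth, stood at 2.75 at 2 weeks and 0.65 at 6 weeks, a change of -2.10 ± 0.36 (adjusted p = 0.00778), and Thbs1 changed by -3.13 ± 0.70 (adjusted p = 0.0238, 0.064 without regression replicate 4). Of the 129 genes whose difference moved down from obesity, 32 had more of the lean CPM in lean replicate 5 than in the other 5 lean libraries together.

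**Figure D5:**
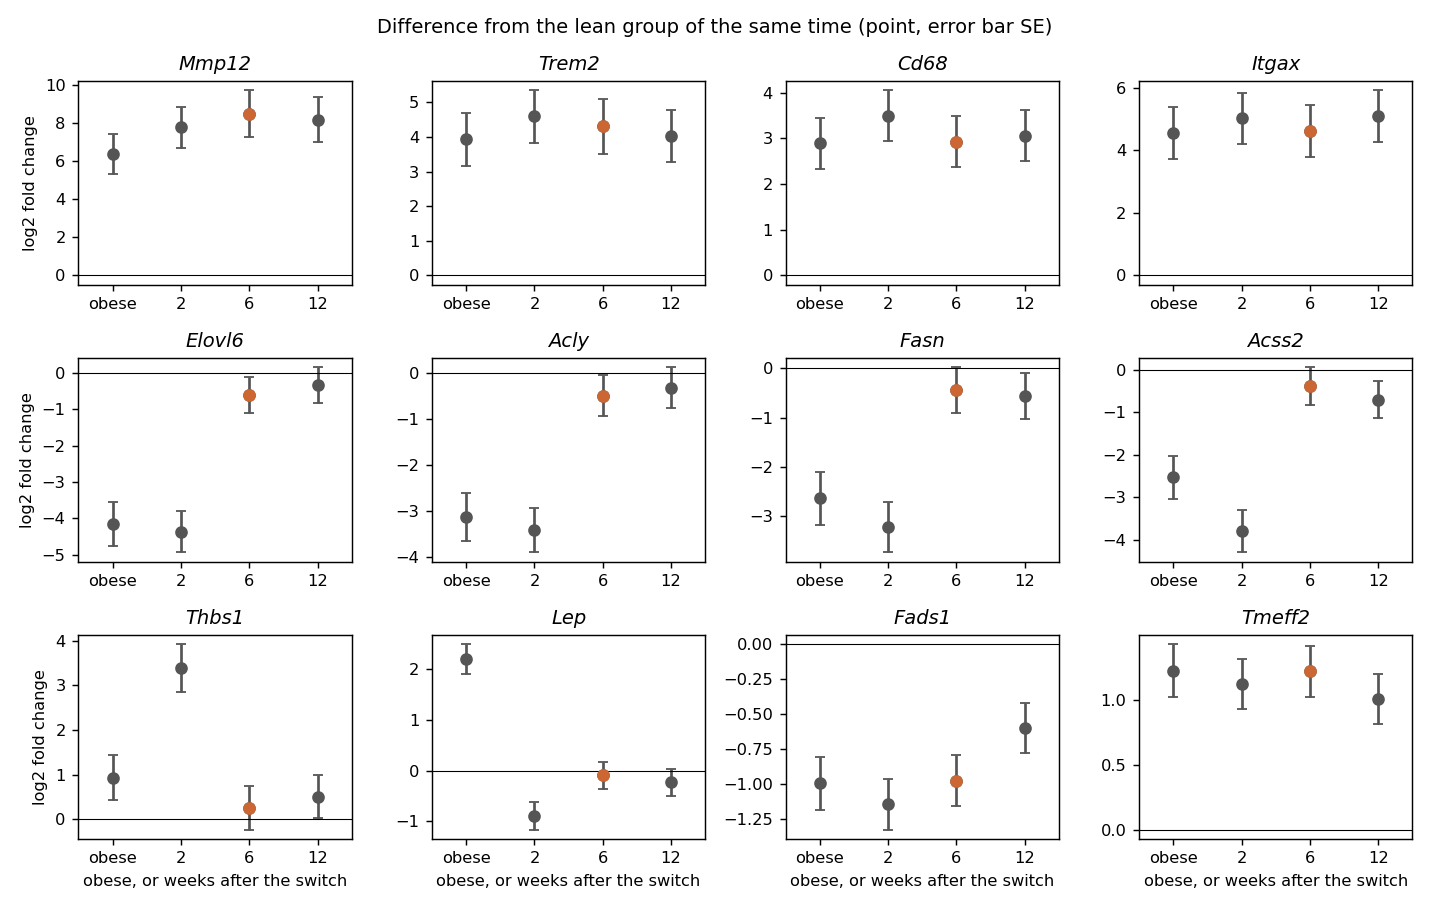
Log2 difference from lean mice of the same time, with its standard error, for 12 genes in obesity and at 2, 6 (orange) and 12 weeks of regression. Mmp12, Trem2, Cd68 and Itgax stay above 0 at all 4 times, Elovl6, Acly, Fasn and Acss2 are far below 0 in obesity and at 2 weeks and near it at 6 and 12 weeks, and Lep is above 0 in obesity only.

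In the authors' deposited table for the same comparison, 1018 genes (6.61%) were higher and 2.91% lower at an adjusted p under 0.05 among 15398 genes with such a value. A total of 795 of the 796 higher and 254 of the 290 lower genes were called in the same direction in that table. Some of the lower genes, among them Akr1b7, Crisp1 and Myh11, have no adjusted p there.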

How the data were processed

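Poly(A) RNA of eWAT was sequenced as paired-end reads on a NovaSeq, per the labels. Raw whole-number counts by gene symbol were deposited by the authors. According to the submitters' processing notes, STAR 2.4.1c, DESeq2 1.38.3 and R 4.2.2 were used with the build mm10. For the counting program, annotation and strand the sources used here give no name, so reads of near-identical, overlapping or antisense genes cannot be told apart. The authors' deposited DESeq2 table holds, per the file headers, a mean of normalised counts (a signal), a log2 fold change with its standard error, a score (the Wald statistic) and p-values, and it was used for 1 count of shared calls.

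The count table lists 20411 genes and no mitochondrial ones. All 47 eWAT libraries (8 groups) were fitted in edgeR 4.0.16 (R 4.3.3) with TMM normalization and the default filter on low counts, which left 14323 genes, and the 6-week groups were contrasted with the two-sided quasi-likelihood F-test. Calls took a Benjamini-Hochberg adjusted p below 0.05. Values after ± are standard errors worked back from the test, as the size of the log2 difference divided by the square root of its F. They were not fitted directly and can mislead where a difference is near 0. CPM are counts per M of the TMM-scaled library and are compared between libraries, not between genes. Changes of the difference from lean between times came from the same fit. No 2 replicates agreed within sampling noise (lowest chi-square per degree of freedom 3.63). With 6.43 to 16.2 M counts per library, genes at 1 CPM rest on few reads. Gene positions came from GENCODE M21 (13845 symbols found once) and promoters from RefSeq. The script was tested on simulated data.

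Named genes were the 12 largest called changes in each direction averaging 5 CPM or more (genes with provisional symbols left out), the 8 smallest p in each direction, the 4 called members with the smallest p in each of 51 lists, fixed fat and macrophage genes, and the 5 largest called changes in each direction between times. Other genes named (uncalled list members, full sets of called members such as Cxcl1, and small sets under stricter settings) were chosen with their values in view. The lists hold 675 distinct genes, of which 639 were tested, and the others did not pass the filter or are not in the table. Some list members are not reported here. The members and all lists were chosen with earlier results of these data known. Alternatives were DESeq2 1.42.0, its size factors, no filter, only the 12 libraries, each library left out, a replicate block, runs of neighbouring mouse numbers as a random block (limma 3.58.1), the mouse series as a term, the runs fitted apart, and duct and vas deferens signals as terms. Added after seeing the data were thinning and 2 libraries left out together.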

Additional observations from a re-analysis of the deposited data

Results flagged for a closer look

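In each group of 6 libraries the gap between the most extreme library and its nearest neighbour was divided by the group's range, and values above Dixon's critical value for 6 values are listed. Of 94 groups examined 19 passed, where chance passes about 1 in 20, and 10 of them were set by lean replicate 5 and 4 by regression replicate 6. Several of the genes and sums were examined because these libraries were already known to stand apart, so the count cannot be read against that rate.

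Lean replicate 5 was far highest in Akr1b7 (1.0), Acta2 (0.96), Myh11 (0.992) and Fads2 (0.689), and in the summed epididymis and vas deferens (0.999) and smooth muscle (0.989) lists. It was far lowest in Adipoq (0.678), Ggt5 (0.752), Cygb (0.849) and the adipocyte marker sum (0.758). Cygb, the fibroblast globin, was examined after its values were seen and was one of the genes called with runs of neighbouring mouse numbers as a block. Regression replicate 6 was far highest in Gpnmb (0.641), Trem2 (0.643), Rgs1 (0.644), a regulator of chemokine signalling in leukocytes, and the lipid-associated macrophage sum (0.748). The remaining libraries were lean replicate 2 in Mmp12 (0.655, at 1.58 CPM), lean replicate 3 in Ucp1 (1.0), regression replicate 5 in Ucp1 (0.825), regression replicate 3 in the vas deferens sum (0.863, at a level of a few CPM) and regression replicate 2 in the cilium sum (0.71).

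For the genes below, the test of the change itself found that the difference from lean was not the same at 6 weeks as at another time (edgeR's quasi-likelihood test, adjusted p under 0.05). From obesity, the vas deferens genes Akr1b7 (-24.5), Crisp1 (-17.5), Serpina1f (-16.3) and Spink8 (-13.0) and Ptgs2 (-12.5) fell on the log2 scale. For the vas deferens genes these are fitted values that depend on the prior count, since they are near 0 in most libraries. Ptgs2 was at 1292 CPM in lean replicate 5 and between 1.145 and 3.471 CPM in the other lean libraries at 6 weeks. DESeq2 gave none of the 5 an adjusted p. Lean replicate 5 held 99.2% to 100% of the 6-week lean CPM of each. Without it, the change was not called in Crisp1 (adjusted p = 0.862) or Ptgs2 (0.274), and Akr1b7, Serpina1f and Spink8 did not pass the filter. The change was also not called in Serpina1f without regression replicate 4 (0.059), nor in Spink8 without any of regression replicates 1 to 6 (0.055 to 0.0702). Also from obesity, Elovl6 (3.55), Acly (2.65), H2-Q10 (2.63), Ciart (2.48) and Hsd11b1 (2.42) rose. From 2 weeks, Elovl6 (3.76), Hephl1 (3.55), Acss2 (3.43), Mogat2 (3.35) and Ncan (3.03) rose, and Thbs1 (-3.13), Thbs2 (-2.1), Dusp8 (-1.61), Btc (-1.53) and the ribosomal protein gene Rps29 (-1.36) fell. H2-Q10 was not called without regression replicate 1 (0.0554), Hephl1 without regression replicates 1 (0.0613), 3 (0.0517) or 4 (0.064), Ncan without regression replicate 4 (0.0528), and Rps29 without lean replicates 2 or 3 or regression replicates 1 to 5 (0.0544 to 0.1).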

How the results depend on the processing

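Called genes are given here as percent of genes tested, since the number tested differs by setting. Against 7.58% (5.56% higher, 2.02% lower), DESeq2 called 10.4% (3.13% lower), its size factors in edgeR 7.60%, no filter 5.33%, the 12 libraries alone 7.69%, the mouse series as a term 7.69% and the duct and vas deferens terms 5.97%. Leaving out 1 library gave 1.24% to 11.1% (1.04% to 7.62% higher, 0.203% to 3.45% lower). Runs of neighbouring mouse numbers as a random block, with limma in place of edgeR, gave 0.161% (0.112% higher, 0.0489% lower). Replicates 1 to 3 apart gave 0.00753%, all higher (0% lower), replicates 4 to 6 apart 0%, and both libraries out 0.126%, all higher. Fewer libraries enter the last 3 fits. The difference in total counts was 3.34 to 5.16 M when 1 library was left out, against 4.33 M.

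Same-numbered replicates did not pair: their deviations correlated at -0.427 to 0.256, and 1 of 6 correlated best with its own number. With the replicate number as a block 6.0% of genes were called (4.94% higher, 1.06% lower), 0.733% for the change from obesity and 1.47% for that from 2 weeks.

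For the change from obesity (1.21%) the runs as a block gave 0.377% and leaving out 1 library 0.776% to 1.42%. For that from 2 weeks (0.796%) DESeq2 gave 3.12%, the runs 0.0698%, the series term 2.0%, both libraries out 2.13% and leaving out 1 library 0.168% to 3.14%. Between 6 and 12 weeks every setting run gave 0%.

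A few differences that were small, or rested on lean replicate 5, changed sign. Leaving out 1 library put Lep between -0.296 and 0.0257, Pparg between -0.105 and 0.041, Sfrp5 between -0.284 and 0.256, Timd4 between -0.168 and 0.466 and Defb42 between -10.1 and 0.157. In replicates 1 to 3 Lep was at 0.117 and Pparg at 0.0337. In replicates 4 to 6 Sfrp5 was at -0.0401 and Lyve1 at -0.00236. Sfrp5 was at -0.0315 with the runs as a block and -0.0561 with both libraries out, where Defb42 was at 0.348. With duct and vas deferens terms Serpina1f was at 1.08 (2.80 for the change from obesity), Spink8 at 0.452 for that change and Defb42 at 0.0726. These genes belong to the list whose mean formed the vas deferens term, so their change of sign there was built in and says nothing further. The cause of the other sign changes was not tested. Genes near 1 CPM rest on few reads at these depths.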
